A study of Mus musculus with 23 samples.

Results

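The axon injury and regeneration genes, 9 of the 38924 gene IDs in the deposited tables, were followed in ribosome-associated mRNA from mouse spinal cord: Jun, Sox11, Gap43, Sprr1a, Gadd45a, Ecel1, Sarm1, Nmnat2 and Map3k12. They were chosen by name as genes known from nerve injury and from the control of axon survival, with earlier results of these data known. The choice is thus not independent of these data. Each member matched 1 gene symbol in all 23 libraries. The study used RiboTag, in which an allele of the ribosomal protein gene Rpl22 carries a haemagglutinin (HA) tag that is expressed only after Cre recombinase has acted, so that an anti-HA precipitate holds the mRNA on the ribosomes of the Cre-expressing cells. Cre was driven by the gene for choline acetyltransferase (Chat), which spinal motor neurons and other cholinergic cells express. The disease allele was GarsC201R, a missense change in glycyl-tRNA synthetase that serves as a mouse model of Charcot-Marie-Tooth disease type 2D, and by the series title the mice were studied before disease onset.

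All mice were 2 weeks old, on the strain background B6.CgxB6.129, and carried the tagged allele (Rpl+/- in the labels). The 4 groups were mutant mice with Cre, labelled Rpl+/-;Chat+/-;C201R+/- (n = 6), wild-type mice with Cre, labelled Rpl+/-;Chat+/-;C201R+/+ (n = 5), mutant mice without Cre, labelled Rpl+/-;Chat+/+;C201R+/- (n = 6), and wild-type mice without Cre, labelled Rpl+/-;Chat+/+;C201R+/+ (n = 6). The no-Cre mice make no tagged ribosomes, and their precipitates measure the RNA that binds without the tag. The Cre allele is itself carried by the Cre mice alone, so Cre, the tag and the enriched cells cannot be told apart. Each library is named here by its group and by a replicate number that follows the order of deposit and pairs no libraries. Nothing states outright that the libraries of a group came from separate mice, so the p-values measure the spread between these libraries.

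A cut or crushed axon changes transcription in its cell body. The dual leucine zipper kinase (DLK, encoded by Map3k12) passes the signal through the c-Jun N-terminal kinases (JNK) to the transcription factor Jun. Jun and Sox11 then take part in the induction of growth-associated genes, among them Gap43 and Sprr1a. The cut-off axon itself is lost by a separate route, in which the labile enzyme Nmnat2 keeps SARM1, an enzyme that destroys NAD, inactive. In motor neurons Jun and Gap43 are known to be expressed during postnatal growth as well as after injury, and Ecel1, a neuronal membrane endopeptidase-like protein, is needed for motor axons to branch in muscle.

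On the mouse build GRCm38 the members lie on separate chromosomes except for Ecel1 and Nmnat2, which are both on chromosome 1. By the GENCODE M21 annotation Jun spans chr4:95049034-95052222, Sox11 chr12:27334264-27342574, Gap43 chr16:42248442-42340651, Sprr1a chr3:92483952-92485895, Gadd45a chr6:67035096-67037457, Ecel1 chr1:87147655-87156521, Sarm1 chr11:78472330-78497754 and Map3k12 chr15:102497646-102517064, all on the minus strand, and Nmnat2 spans chr1:152954993-153119261 on the plus strand. The values are per gene over all its exons.

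Jun regulates its own gene through a site of the AP-1 family in its promoter, so the promoters of the members were searched for such sites. RefSeq promoter sequences (GRCm38.p6, 250 bases before to 50 after the start) were found for 8 of the 9 members, with 9 promoters in all because Map3k12 has 2. The 4 motifs searched on both strands were TGACTCA, the AP-1 site, TGACATCA, its 8-base variant in the Jun promoter, TGACGTCA, the cyclic AMP response element, and TGATGCAA, a composite site for ATF4. TGACATCA was in 3 of the 9 promoters, those of Jun, Sox11 and Sprr1a, against 3.62% of the 32851 promoters in the table. TGACTCA was in 1 of 9, that of Sprr1a, which held it more than once, against 5.20% of the table, and neither TGACGTCA (1.79% of the table) nor TGATGCAA (0.895%) was in any of the 9. The 250 bases before the start are shown for the 3 genes with a match and for Ecel1, which has the largest Cre difference below and no match, 5′ to 3′ on the gene's own strand with the motifs in capitals.
Jun (GRCm38.p6, chr4:95052223-95052472, minus strand): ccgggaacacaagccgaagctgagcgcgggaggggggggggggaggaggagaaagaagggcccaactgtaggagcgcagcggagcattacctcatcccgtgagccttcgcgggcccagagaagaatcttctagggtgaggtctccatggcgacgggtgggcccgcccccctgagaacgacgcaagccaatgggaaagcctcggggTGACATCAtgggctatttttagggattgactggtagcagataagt
Sox11 (GRCm38.p6, chr12:27342719-27342968, minus strand): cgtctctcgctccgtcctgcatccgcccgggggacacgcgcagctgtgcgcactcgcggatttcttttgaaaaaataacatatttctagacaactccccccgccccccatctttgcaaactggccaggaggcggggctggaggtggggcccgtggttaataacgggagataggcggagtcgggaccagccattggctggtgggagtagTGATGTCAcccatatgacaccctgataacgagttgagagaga
Sprr1a (GRCm38.p6, chr3:92485882-92486131, minus strand): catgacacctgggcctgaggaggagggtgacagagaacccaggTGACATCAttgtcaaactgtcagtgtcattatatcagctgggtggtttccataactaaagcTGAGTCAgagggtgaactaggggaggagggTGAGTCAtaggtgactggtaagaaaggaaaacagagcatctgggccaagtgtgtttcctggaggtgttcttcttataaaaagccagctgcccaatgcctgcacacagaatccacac
Ecel1 (GRCm38.p6, chr1:87156357-87156606, minus strand): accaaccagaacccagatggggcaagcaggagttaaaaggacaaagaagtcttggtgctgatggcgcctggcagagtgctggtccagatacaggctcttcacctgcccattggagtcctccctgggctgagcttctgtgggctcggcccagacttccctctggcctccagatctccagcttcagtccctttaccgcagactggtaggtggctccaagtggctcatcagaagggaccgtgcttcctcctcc

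In the Jun promoter the capitals mark TGACATCA, which begins 45 bases before the start. In the Sox11 promoter the same site lies on the opposite strand and reads TGATGTCA, beginning 42 bases before the start. The Sprr1a promoter holds TGAGTCA, which is the AP-1 site read on the opposite strand, beginning 146 and 116 bases before the start, and TGACATCA beginning 207 bases before it. The starts are those of RefSeq and differ from the GENCODE positions above for Sox11, Sprr1a and Ecel1. Most of the Ecel1 window lies inside its GENCODE span, so its lack of a match holds for the RefSeq window only. The motifs are matches of letters in a window, and no binding was measured. The 3 genes with a match do not share a level: Jun was among the most abundant members, and Sox11 and Sprr1a were the least abundant.

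The libraries held 9031629 to 19671837 estimated counts, but 50.6% to 95.6% of them fell on 358 ribosomal RNA-like and mitochondrial rRNA genes, which left 594360 to 6237380 counts. Levels are given as CPM, counts scaled to a common library size, here by the trimmed mean of M-values (TMM). Of the 7 motor neuron markers matched, all rose in Cre libraries, with summed levels of 115 to 417 CPM in mutants with Cre and 333 to 468 CPM in wild type with Cre, against 19.8 to 24.8 CPM in mutant no-Cre and 18.5 to 82.3 CPM in wild-type no-Cre libraries. Oligodendrocyte markers were the main other signal, and all 8 fell in Cre libraries, with summed levels of 798 to 7061 CPM in mutants with Cre and 545 to 2990 CPM in wild type with Cre, against 7340 to 16834 CPM in mutant no-Cre and 7098 to 13612 CPM in wild-type no-Cre libraries. A set of 4 Cre libraries stood apart by high oligodendrocyte levels, replicates 6, 4 and 1 of mutant Cre and replicate 2 of wild-type Cre, and the members' results were refitted without them. These fits left out Cre libraries alone and kept every no-Cre library. Markers of sensory ganglion neurons, in which many injury genes are induced, summed to at most 2.31 CPM in any library.

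Ranked in TPM, a level that is scaled to transcript length, the members differed widely in the 11 Cre libraries. Gap43 had the highest median level, 45.1 TPM, followed by Jun at 30.2 TPM, and Gap43 was above Jun in 10 of the 11 libraries. Gadd45a (10.4 TPM), Nmnat2 (9.28 TPM), Ecel1 (7.32 TPM) and Map3k12 (6.28 TPM) formed a middle group. Within it Gadd45a was above Nmnat2 in 8 of 11 libraries and Nmnat2 above Ecel1 in 6 of 11, so neither pair had a fixed order, while Ecel1 was above Map3k12 in 10 of 11. Sarm1 had a median of 2.91 TPM, Sox11 0.58 TPM and Sprr1a 0.13 TPM. The level of Sox11 rested on at most 28 counts in any library.

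**Figure D1:**
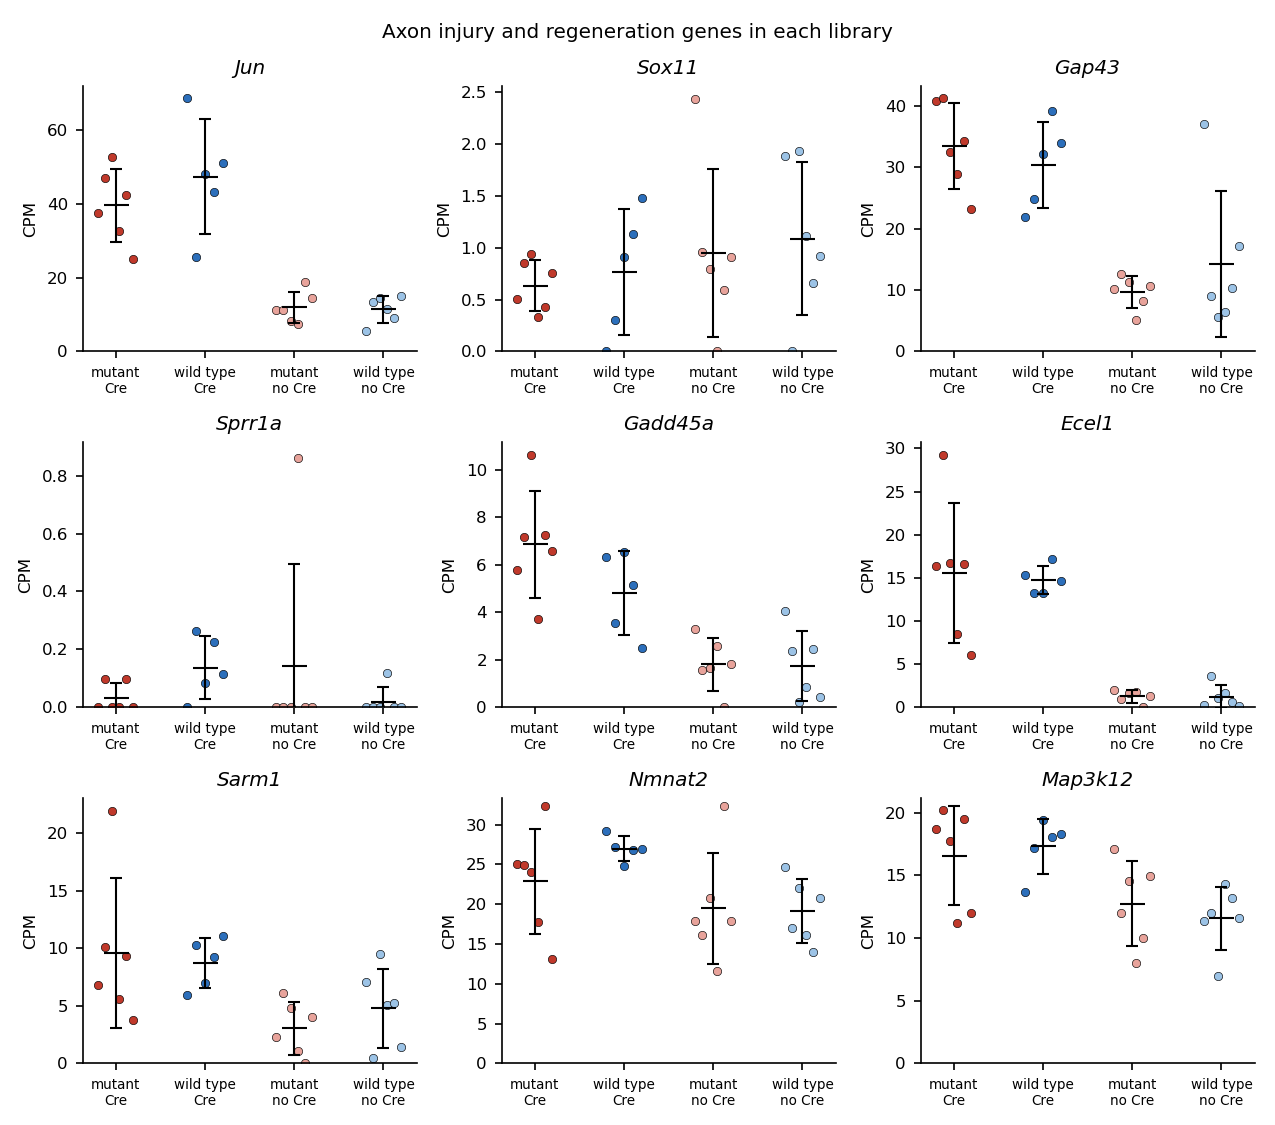
Levels of the 9 members in every library, in TMM-scaled CPM on linear axes that start at 0. Each point is a library, and the bars give the mean and SD of mutant Cre (n = 6), wild-type Cre (n = 5), mutant no-Cre (n = 6) and wild-type no-Cre (n = 6) libraries; Jun and Ecel1 were higher in every Cre library than in any no-Cre library, and the genotypes overlapped for all 9 genes.

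The first question is which of these genes the Cre precipitates enrich over the precipitates without Cre. In wild-type mice 6 of the 8 tested members rose in Cre libraries (Jun, Gap43, Gadd45a, Ecel1, Nmnat2 and Map3k12) and none fell, where 20.0% of all 12485 genes tested rose and 25.9% fell. In mutants 5 of 8 rose (Jun, Gap43, Gadd45a, Ecel1 and Sarm1) and none fell, where 14.1% of 12741 genes rose and 19.2% fell. With both genotypes averaged in a fit of all 23 libraries, 6 of 8 rose and none fell, against 22.1% of 14468 genes that rose and 34.7% that fell. The members' median log2 fold change in that fit was 1.31, beside -0.28 for all genes tested. Sprr1a had too few counts to be tested in any comparison. Every Cre library was above every no-Cre library for 4 members in mutants (Jun, Gap43, Gadd45a and Ecel1), where 9.71% of genes were, and for 3 in wild type (Jun, Ecel1 and Nmnat2), where 13.3% were. A gene was called at a Benjamini-Hochberg adjusted p under 0.05 in edgeR's quasi-likelihood test over all genes tested, and a fold change is Cre over no Cre. In bulk precipitates, more enriched cells and more mRNA per cell cannot be told apart.

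Ecel1 showed the largest difference. Its level was 6.09 CPM at the lowest, 16.4 at the median and 29.3 at the highest in mutant Cre libraries, and 15.3, 13.3, 13.2, 17.2 and 14.7 CPM in the wild-type Cre libraries. It ranged from 0 to 2.01 CPM in mutant no-Cre and from 0.176 to 3.63 CPM in wild-type no-Cre libraries. The Cre and no-Cre libraries did not overlap in either genotype, and the 2 lowest Cre values, 6.09 and 8.46 CPM, were those of mutant replicates 6 and 4, the 2 libraries with the most oligodendrocyte RNA. The log2 fold change was 3.43 ± 0.44 (SE) in mutants (adjusted p = 3.61e-05, edgeR) and 3.70 ± 0.57 in wild type (adjusted p = 9.58e-05, edgeR). Chat itself rose by 3.62 ± 0.46 in mutants and 4.80 ± 0.42 in wild type on the same scale.

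Jun, the transcription factor at the end of the DLK and JNK pathway, was also higher in every Cre library. It had 25.0 CPM at the lowest, 40.1 at the median and 52.6 at the highest in mutant Cre libraries, and 68.8, 25.5, 48.2, 43.3 and 51.2 CPM in wild-type Cre libraries. The no-Cre libraries held 7.55 to 18.8 CPM in mutants and 5.51 to 14.9 CPM in wild type, so that again no Cre library overlapped a no-Cre library. On the log2 scale the fold change was 1.69 ± 0.26 (SE) in mutants (adjusted p = 0.000153, edgeR) and 2.14 ± 0.31 in wild type (adjusted p = 5.07e-05, edgeR). The 4 lowest Jun values among the 11 Cre libraries, 25.0, 25.5, 32.7 and 37.6 CPM, were those of the 4 libraries highest in oligodendrocyte markers. Without those libraries the log2 fold change was 2.16 in mutants and 2.32 in wild type. That fit drops the lowest Jun values from the Cre groups and keeps every no-Cre library. A larger difference follows from this choice, so the fit is no check of it. Jun shares 232 exon bases with the antisense gene Junos on the opposite strand, and whether the counting used strand is not stated. Junos itself averaged 0.158 and 0.202 CPM in mutant and wild-type Cre libraries.

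Gap43, which encodes a growth cone phosphoprotein, ranged from 23.3 to 41.3 CPM in mutant Cre libraries with a median of 33.3 CPM, and was 21.8, 24.9, 32.2, 39.1 and 33.9 CPM in wild-type Cre libraries. Mutant no-Cre libraries held 5.18 to 12.5 CPM, all below the lowest mutant Cre value. Wild-type no-Cre libraries held 5.67 to 17.2 CPM except for replicate 1 at 37.0 CPM, which lay inside the range of the Cre libraries. The log2 fold change was 1.71 ± 0.24 (SE) in mutants (adjusted p = 6.87e-05, edgeR) and 1.20 ± 0.41 in wild type (adjusted p = 0.0234, edgeR). Without that no-Cre library the wild-type value was 1.69, and without any 1 of 4 other libraries (replicate 4 of wild-type Cre, replicates 3, 4 and 5 of wild-type no-Cre) it was no longer called.

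Gadd45a, a stress-responsive gene of growth arrest and DNA repair that rises in injured neurons, was a low-count gene. Its level was 3.74 to 10.6 CPM in mutant Cre libraries with a median of 6.89 CPM, and 6.35, 3.55, 6.54, 5.14 and 2.50 CPM in wild-type Cre libraries. It was 0 to 3.30 CPM in mutant no-Cre libraries, below every mutant Cre library, and 0.241 to 4.06 CPM in wild-type no-Cre libraries, which overlapped the Cre libraries. Its fold change on the log2 scale was 1.78 ± 0.42 (SE) in mutants (adjusted p = 0.00397, edgeR) and 1.59 ± 0.61 in wild type (adjusted p = 0.0417, edgeR). The wild-type call was lost when any 1 of 7 of the 11 libraries was left out, at values of 1.33 to 1.97 over all of the omissions. Gadd45a shares 337 exon bases with E230016M11Rik on the opposite strand, with the same uncertainty of strand. That RNA moved the other way, with a log2 fold change of -1.69 ± 0.64 in the 23-library fit (adjusted p = 0.0267, edgeR).

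Nmnat2 and Sarm1 govern axon loss. Nmnat2, the NAD-synthesising survival factor, ranged from 13.1 to 32.3 CPM in mutant Cre libraries with a median of 24.5 CPM, and was 29.2, 27.2, 24.8, 26.8 and 27.0 CPM in wild-type Cre libraries. It reached 11.6 to 32.3 CPM in mutant no-Cre libraries and 14.0 to 24.7 CPM in wild-type no-Cre libraries. The wild-type groups therefore just failed to overlap, and the mutant groups overlapped over most of their range. The log2 fold change was 0.19 ± 0.27 (SE) in mutants (adjusted p = 0.615, edgeR) and 0.59 ± 0.22 in wild type (adjusted p = 0.0355, edgeR). The wild-type call was lost on leaving out any 1 of 6 of the 11 libraries. Over both genotypes the value was 0.38 ± 0.17 (adjusted p = 0.0624, edgeR), and 0.68 without the 4 libraries high in oligodendrocyte markers (adjusted p = 0.00383, edgeR).

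Sarm1, the NAD-cleaving executioner, was 3.76 to 22.0 CPM in mutant Cre libraries with a median of 8.06 CPM, and 5.95, 10.3, 6.95, 9.22 and 11.03 CPM in wild-type Cre libraries. It was 0 to 6.12 CPM in mutant no-Cre libraries and 0.419 to 9.53 CPM in wild-type no-Cre libraries, so both pairs of groups overlapped. In the edgeR fits the log2 fold change was 1.45 ± 0.52 (SE) in mutants (adjusted p = 0.0411, edgeR) and 0.96 ± 0.53 in wild type (adjusted p = 0.146, edgeR). The mutant call was lost on leaving out any 1 of 6 of the 12 libraries. Within title number 18405, the only number with both mutant groups, Sarm1 was 4.69 CPM in 2 Cre libraries and 6.12 CPM in 1 no-Cre library. Those Cre libraries are mutant replicates 6 and 4, the 2 highest in oligodendrocyte markers. Without the 3 mutant libraries high in oligodendrocyte markers the mutant value was 2.18. In the 23-library fit the value was 1.19 ± 0.39 (adjusted p = 0.0105, edgeR), and with the title number as a block it was 0.76 and no longer called (adjusted p = 0.261, edgeR). The TPM ratio of Nmnat2 to Sarm1 had medians of 3.26 in mutant Cre and 2.74 in wild-type Cre libraries, with ranges of 0.728 to 3.78 and 2.20 to 4.44 that overlapped.

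Map3k12, the DLK kinase, had 11.2 to 20.2 CPM in mutant Cre libraries with a median of 18.2 CPM, and 13.7, 17.2, 19.4, 18.1 and 18.3 CPM in wild-type Cre libraries. Mutant no-Cre libraries held 7.98 to 17.1 CPM and wild-type no-Cre libraries 6.99 to 14.3 CPM, and both pairs of groups overlapped. The log2 fold change was 0.31 ± 0.24 (SE) in mutants (adjusted p = 0.345, edgeR) and 0.66 ± 0.25 in wild type (adjusted p = 0.0388, edgeR). The wild-type call was lost on leaving out any 1 of 8 of the 11 libraries. The gene shares 1573 exon bases with Pcbp2 on the opposite strand, which is a splicing and translation factor gene, so reads there cannot be assigned without strand. Pcbp2 itself had a log2 fold change of 0.62 ± 0.20 in the 23-library fit (adjusted p = 0.0118, edgeR), beside 0.47 ± 0.17 for Map3k12 (adjusted p = 0.0194, edgeR). That Map3k12 call was lost with the title number as a block (0.20, adjusted p = 0.48, edgeR) and with library totals alone (1.05, adjusted p = 0.0836, edgeR). Without the libraries high in oligodendrocyte markers the value was 0.76 over both genotypes and 0.72 in mutants (adjusted p = 0.00254 and 0.0823, edgeR).

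Sox11, a developmental and injury-induced transcription factor, and Sprr1a, a small proline-rich protein of regenerating axons, were at or near the detection limit. Sox11 had 94 counts in all in mutant Cre libraries, 46 in wild-type Cre, 68 in mutant no-Cre and 96 in wild-type no-Cre libraries, or 0.33 to 0.944, 0 to 1.48, 0 to 2.44 and 0 to 1.93 CPM. Its log2 fold change was -0.69 ± 0.58 (SE) in mutants (adjusted p = 0.379, edgeR) and -0.36 ± 0.84 in wild type (adjusted p = 0.747, edgeR). Its sign over both genotypes, -0.55, was 0.11 when libraries were scaled by their totals alone. Sprr1a had 6 counts in mutant Cre, 11 in wild-type Cre, 4 in mutant no-Cre and 3 in wild-type no-Cre libraries, and 0 counts in 4 of 6, 1 of 5, 5 of 6 and 5 of 6 libraries of these groups. A count of 3 corresponds to 0.0942 to 1.76 CPM, depending on the library, so a Sprr1a difference near these levels was not detectable at this depth. Sprr1a reached at most 0.0989 CPM in mutant Cre and 0.263 CPM in wild-type Cre libraries.

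The titles begin with 1 of 6 numbers, whose meaning the labels do not give, and the Cre calls were set against them as a possible batch. In wild type both groups are present in numbers 20302 and 20401. On the log2(CPM + 1) scale the Cre difference was 2.96 and 1.78 for Jun and 3.53 and 3.14 for Ecel1 in these numbers, but -0.16 and 1.08 for Gap43, 0.02 and 1.47 for Gadd45a, 0.07 and 0.72 for Nmnat2, and 0.69 and 0.22 for Map3k12. Number 20302 holds 1 no-Cre library, the replicate 1 with high Gap43. In mutants number 18405 alone holds both groups, 2 Cre libraries and 1 no-Cre library, with differences of 1.27 for Jun, 2.06 for Ecel1, 0.99 for Gap43, 1.22 for Gadd45a and -0.34 for Sarm1. Its Cre libraries are mutant replicates 6 and 4. Of all Cre libraries they were the 2 highest in oligodendrocyte markers and the 2 lowest in motor neuron markers (115 and 171 CPM). A batch and low enrichment therefore cannot be told apart in that number. With the number as a block, Jun and Ecel1 stayed called in wild type and Ecel1 in mutants. Over all genes 4557 and 598 were called in these fits, against 5738 and 4247 without the block. Scaled by library totals alone Ecel1 was the 1 member called in wild type, where 906 of all genes were. Ecel1 was thus the 1 member called in both genotypes under either choice. Without the 4 libraries high in oligodendrocyte markers the same number of members was called, 5 in mutants and 6 in wild type, and Ecel1, Gap43 and Gadd45a had values of 4.05, 2.01 and 2.27 in mutants and 3.76, 1.30 and 1.72 in wild type.

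**Figure D2:**
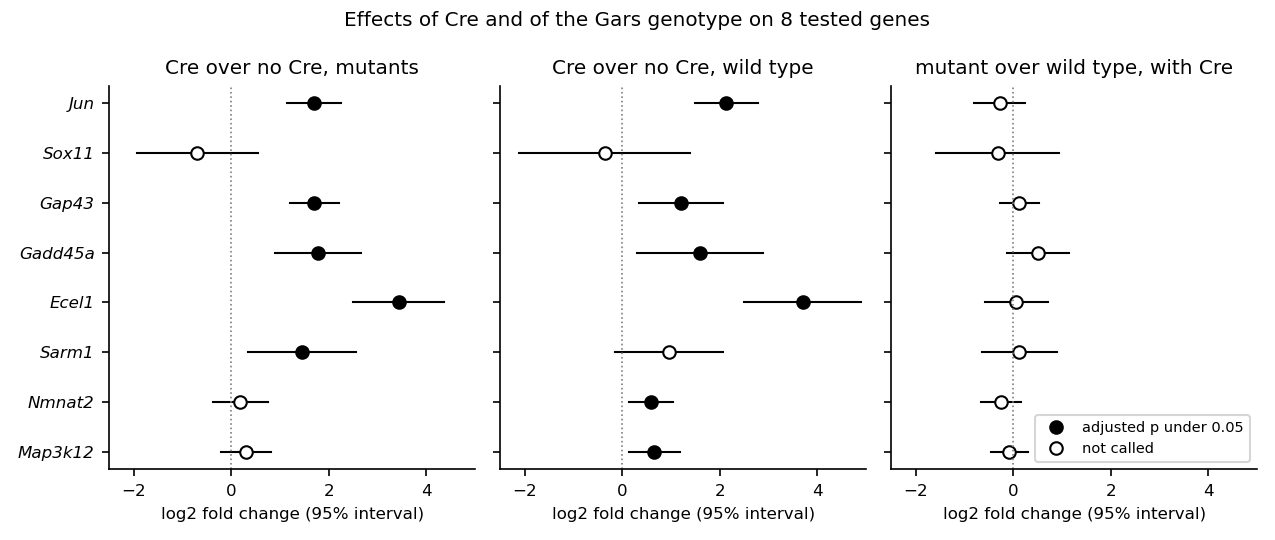
Log2 fold changes of the 8 tested members, with 95% intervals from edgeR's quasi-likelihood fits, for Cre over no Cre in mutants, Cre over no Cre in wild type, and mutant over wild type with Cre. Filled points have an adjusted p under 0.05 over all genes tested; 5 points are filled in mutants, 6 in wild type and none in the genotype panel, where Gadd45a lies farthest to the right at 0.51.

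The second question is whether the mutant allele changes these genes in the tagged cells before disease onset. None of the 8 tested members was called between mutant Cre and wild-type Cre libraries, where 41 of 12399 genes, or 0.331%, were called (2113 at an unadjusted p under 0.05). Without wild-type Cre replicate 2, which is 1 of the 4 libraries high in oligodendrocyte markers, 1054 genes or 8.41% were called, and still no member was. No member had an unadjusted p under 0.05, and DESeq2 also called none of them, where it called 413 genes or 3.61%. The groups overlapped for every member, where they did not overlap for 1.09% of genes in the higher and 1.19% in the lower direction. The median log2 fold change of the members was -0.01, beside 0.06 for all genes tested. A p above the threshold does not show equal levels, and the intervals give the differences these libraries leave possible.

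Gadd45a had the largest estimate, 6.87 ± 2.26 CPM in mutant Cre and 4.82 ± 1.76 CPM in wild-type Cre libraries (SD, n = 6 and 5), a log2 fold change of 0.51 ± 0.30 (SE, 95% interval -0.13 to 1.15, adjusted p = 0.379, edgeR). Its difference kept the same sign within both title numbers that hold both groups, 0.54 in number 20302 and 0.76 in number 20401 on the log2(CPM + 1) scale. Each of these values rests on 2 libraries per group. Ecel1 (0.62 and 0.21), Gap43 (0.31 and 0.50), Map3k12 (0.04 and 0.26) and Nmnat2 (-0.05 and -0.01) kept their sign as well, whereas Jun, Sox11 and Sarm1 changed it. Jun was 39.6 ± 10.0 CPM in mutant Cre and 47.4 ± 15.6 CPM in wild-type Cre libraries (SD, n = 6 and 5), a log2 fold change of -0.27 ± 0.25 (SE, 95% interval -0.80 to 0.25, adjusted p = 0.565, edgeR). The same difference was 0.78 when libraries were scaled by totals alone, a scaling that moved the median of all genes to 0.79, so the value of Jun was close to that median.

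Nmnat2 was 22.9 ± 6.64 CPM in mutant Cre and 27.0 ± 1.54 CPM in wild-type Cre libraries (SD, n = 6 and 5), with a log2 fold change of -0.25 ± 0.19 (SE, 95% interval -0.65 to 0.15, adjusted p = 0.495, edgeR). The 2 lowest mutant values, 13.1 and 17.7 CPM, were replicates 6 and 4, which were highest in oligodendrocyte markers, and without the 4 libraries high in those markers the value was -0.03. Ecel1 (0.07, 95% interval -0.58 to 0.71), Gap43 (0.13, -0.28 to 0.53), Sarm1 (0.13, -0.65 to 0.90) and Map3k12 (-0.08, -0.46 to 0.30) had estimates near 0, and the interval of Sox11 was wide (-0.32, -1.59 to 0.95). In this fit of all 11 Cre libraries with TMM, the intervals of all but Gadd45a and Sox11 leave out a change of 1 log2 unit in either direction. No intervals are given for the alternative fits, so this statement does not extend to them. Sarm1 was 0.68 without the 4 libraries high in oligodendrocyte markers. With library totals alone Jun and Map3k12 were 0.78 and 0.71, where the median of all genes was 0.79.

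The targeted gene and the enriched cells bear on this comparison. Gars, measured over both alleles, was 70.1 ± 21.4 CPM in mutant Cre and 57.9 ± 10.5 CPM in wild-type Cre libraries (SD, n = 6 and 5), and a missense allele leaves its level as no check of the genotype. The oligodendrocyte list had a median log2 fold change of 1.63 between the genotypes with 0 of 8 genes called, and Chat was 33.7 ± 13.7 CPM in mutant Cre and 56.1 ± 11.8 CPM in wild-type Cre libraries (log2 fold change -0.75 ± 0.28, adjusted p = 0.22, edgeR). Of the 4 Cre libraries high in oligodendrocyte markers, 3 were mutant. Without these 4 libraries none of the members was called either, where 540 genes or 4.54% were, and Ecel1 and Sarm1 had estimates of 0.43 and 0.68. The part of the oligodendrocyte RNA in the genotype differences was not tested beyond that fit.

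**Figure D3:**
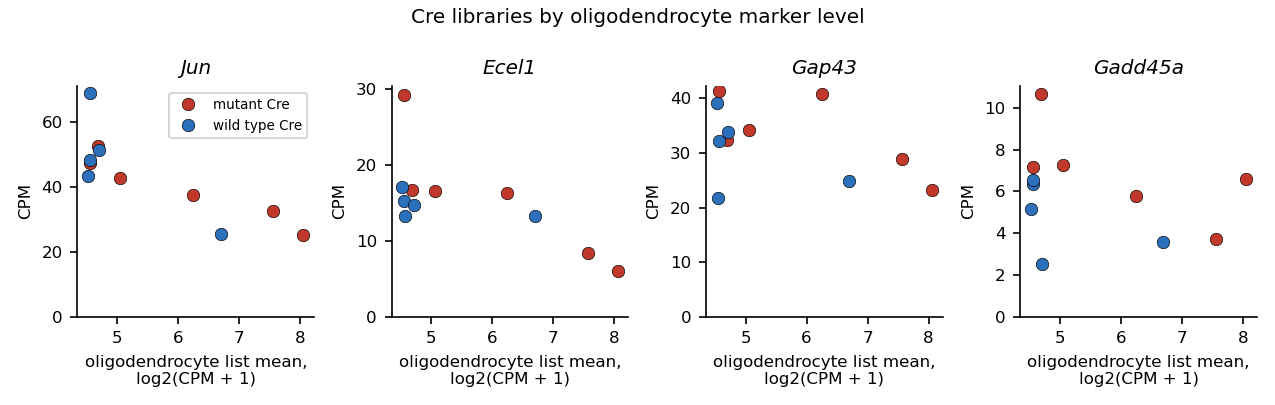
Levels of Jun, Ecel1, Gap43 and Gadd45a, in CPM, against the mean log2(CPM + 1) of 8 oligodendrocyte markers in the 11 Cre libraries, with mutant and wild-type libraries in different colours. The 4 libraries to the right of 6 on the horizontal axis hold the 4 lowest Jun values, and the 2 rightmost hold the 2 lowest Ecel1 values.

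Between the no-Cre groups none of the 8 members was called (0 of 12588 genes called by edgeR and by DESeq2, 565 at an unadjusted p under 0.05), with estimates from -0.55 for Sarm1 to 0.13 for Map3k12. The difference of the genotype effects with and without Cre was called for none of the 8 members either, against 3 of 14468 genes, or 0.0207%. The largest of these differences were 0.66 ± 0.49 (SE) for Gap43 and 0.65 ± 0.77 for Sarm1. Without replicate 1 of wild-type no-Cre, the library with high Gap43, the Gap43 difference was 0.13.

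The members' wider pathways were followed through 6 lists of 108 genes, of which 107 matched a gene symbol. In the 23-library fit 34 of the 96 tested list genes rose in Cre libraries and 27 fell, beside 22.1% and 34.7% of all genes. Scaled by library totals alone, 33 list genes rose and 4 fell, where 3381 of all genes rose and 1350 fell (3195 and 5016 with TMM), so the falls below depend on the scaling. Between mutant and wild-type Cre libraries none of 89 tested list genes was called by edgeR with all libraries. DESeq2 called 4 of them, where it called 3.61% of all genes. Without the 4 libraries high in oligodendrocyte markers edgeR called 3, where it called 4.54% of all genes. Without wild-type Cre replicate 2 alone it called 8, where it called 8.41% of all genes. The list genes were thus called at about the rate of all genes in each of these fits. The median of the list genes is given beside -0.28 for all genes in the Cre comparison and 0.06 in the genotype comparison.

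In the DLK and JNK list 8 of 23 genes rose with Cre and 4 fell, with a median log2 fold change of 0.07. The kinase Mapk9, which is JNK2, rose by 1.28 ± 0.17 (SE, adjusted p = 6.96e-07, edgeR), and the JNK scaffold Mapk8ip2 by 1.67 ± 0.19 (adjusted p = 4.21e-08). Map4k4, a kinase upstream of the cascade, fell by 2.29 ± 0.21 on the log2 scale (adjusted p = 8.15e-10), and the scaffold Spag9 fell by 0.98 ± 0.15 (adjusted p = 4.78e-06). Map3k13, the closest relative of DLK, had a value of -0.26 ± 0.34 (adjusted p = 0.528). Between genotypes with Cre the smallest p in this list belonged to Dusp1, a phosphatase that inactivates JNK, at -0.90 ± 0.28 (adjusted p = 0.165).

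In the growth cone and cytoskeleton list 9 of 18 genes rose and 5 fell, with a median of 0.51. The neuronal tubulin Tubb3 rose by 3.23 ± 0.24 (SE, adjusted p = 2.27e-11, edgeR) and the microtubule regulator Stmn2 by 3.02 ± 0.20 (adjusted p = 3.92e-12), each more than Gap43 at 1.43 ± 0.25. The cell adhesion molecule L1cam rose by 1.57 ± 0.18 (adjusted p = 3.68e-08). Marcks, a membrane-bound actin regulator, fell by 2.62 ± 0.31 on the log2 scale (adjusted p = 5.81e-08, edgeR). Between genotypes it had a value of 1.51 ± 0.52 (adjusted p = 0.191, edgeR). DESeq2 called it (adjusted p = 0.0467), as did edgeR without wild-type Cre replicate 2 (adjusted p = 0.0397). Without the 4 libraries high in oligodendrocyte markers its value was 0.73 and it was not called (adjusted p = 0.126, edgeR).

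Among peptides, ligands and receptors 7 of 16 tested genes rose and 1 fell, with a median of 0.40. Ret and Gfra1, which form the receptor for the motor neuron survival factor GDNF, rose by 3.50 ± 0.24 and 1.57 ± 0.23 (SE, adjusted p = 5.45e-12 and 1.6e-06, edgeR). The neuropeptide genes Nts and Adcyap1 rose by 3.85 ± 0.41 and 1.85 ± 0.29 (adjusted p = 1.02e-08 and 4.9e-06). The gene that fell was Osmr, the oncostatin M receptor, at -2.79 ± 0.55 (adjusted p = 0.000104). A further 8 injury-linked genes of this list had too few counts to be tested, among them Il6 with 0 counts in both Cre groups, Reg3b with 9 in mutant Cre and 4 in wild-type Cre libraries, and Gpr151 with 7 and 0. Between genotypes Il6st, the shared receptor subunit of this cytokine family, had the smallest p, at 0.83 ± 0.18 (adjusted p = 0.0709, edgeR). It was called by DESeq2 (adjusted p = 0.00488), and by edgeR without the 4 libraries high in oligodendrocyte markers (adjusted p = 0.0298) or without wild-type Cre replicate 2 (adjusted p = 0.0113).

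In the list of injury transcription factors 3 of 14 genes rose and 6 fell, with a median of -0.31. Stat3 rose by 1.34 ± 0.19 (SE, adjusted p = 1.54e-06, edgeR) and Xbp1, a factor of the unfolded protein response, by 1.09 ± 0.30 (adjusted p = 0.00319), whereas Creb1 and Sox4 fell by 1.47 ± 0.25 and 1.84 ± 0.34 on the log2 scale (adjusted p = 1.78e-05 and 4.06e-05). Atf3, the factor most often used to mark an injured neuron, was also among those called lower (adjusted p = 0.043, edgeR), but all 5 wild-type Cre libraries held 0 counts of it, so its fitted fold change depends on the prior count and is not given.

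Atf3 did not reach the count filter between the Cre groups. It had 24, 5, 11, 10, 25 and 2 counts in mutant Cre replicates 1 to 6, or 77 in all, and 0 counts in each of the 5 wild-type Cre libraries. Every mutant Cre library thus held Atf3 reads and no wild-type Cre library did. Of the 12399 genes that reached the filter, 1.09% were higher in every mutant Cre than in any wild-type Cre library. In single wild-type Cre libraries 3 counts correspond to 0.131 to 0.595 CPM, and mutant Cre replicate 2 held 0.165 CPM. Pooled over the group, the 77 counts are 0.496 CPM in mutant Cre libraries. Over all wild-type Cre libraries 3 counts, the limit that a count of 0 allows, correspond to 0.0483 CPM. The pooled mutant value was 10.3-fold that limit, which covers counting error in wild type only and leaves out the spread between libraries. The no-Cre libraries held 12 counts in mutants and 35 in wild type, of which 25 were in wild-type replicate 1, or 0.171 and 0.359 CPM pooled. The pooled value of wild type without Cre thus rests mostly on 1 library. Atf3 was singled out after its values were seen, so no test of its difference alone is reported, and at these levels it is among the rarest genes described here. The fit without a filter included Atf3. No injury transcription factor was called between the Cre groups in that fit, where 89 of all genes were. Wild-type no-Cre replicate 1, the no-Cre library with the most Atf3, was also the no-Cre library with the highest Gap43 and Gadd45a.

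In the list of NAD metabolism and axon degeneration 5 of 14 genes rose and 6 fell, with a median of -0.67. The calcium-activated proteases Capn1 and Capn2 rose by 3.39 ± 0.24 and 1.26 ± 0.15 (SE, adjusted p = 2.12e-11 and 1.11e-07, edgeR), and Cast, which encodes their inhibitor calpastatin, rose by 2.00 ± 0.24 (adjusted p = 7.37e-08). Skp1a, part of a ubiquitin ligase that removes Nmnat2, rose by 1.65 ± 0.17 (adjusted p = 5.07e-09). The NAD-consuming enzyme Cd38 and the NAD-salvage enzymes Nampt and Nmrk1 fell, by 2.17 ± 0.33, 1.46 ± 0.34 and 1.91 ± 0.24 on the log2 scale (adjusted p = 3.47e-06, 0.000663 and 1.35e-07). Between genotypes Cast, Parp1 and Capn1 had values of -0.84 ± 0.18, -0.71 ± 0.16 and -0.73 ± 0.23 (adjusted p = 0.0686, 0.0769 and 0.159, edgeR), and none was called in that fit. DESeq2 called Cast and Parp1 (adjusted p = 0.00428 and 0.00317), and edgeR called Parp1 without the 4 libraries high in oligodendrocyte markers (adjusted p = 0.0279) and all 3 without wild-type Cre replicate 2 (adjusted p = 0.0193, 0.0108 and 0.0366). The fit without that replicate also called Capn2, at -0.59 (adjusted p = 0.0391, edgeR).

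Of 11 tested intrinsic brakes on regrowth 2 rose and 5 fell, with a median of -0.70. The falls in this list varied with the fit, and 2 were called with the title number as a block, 1 without number 18405 or without mutant no-Cre replicate 3, 2 without mutant Cre replicate 1, and 0 with library totals alone. Lingo1 and Ptprs, which encode a subunit of a myelin inhibitor receptor and a proteoglycan receptor, rose by 0.90 ± 0.28 and 0.70 ± 0.17 (SE, adjusted p = 0.00737 and 0.00117, edgeR). Rock2, a kinase that collapses growth cones, fell by 0.97 ± 0.20 on the log2 scale (adjusted p = 0.000159, edgeR). All lists were measured beside the oligodendrocyte markers, whose median log2 fold change in this fit was -2.22 with 8 of 8 genes called lower, and the astrocyte markers, at -2.14 with 6 of 7 lower. The share of these cells in a fall of a list gene was not tested.

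**Figure D4:**
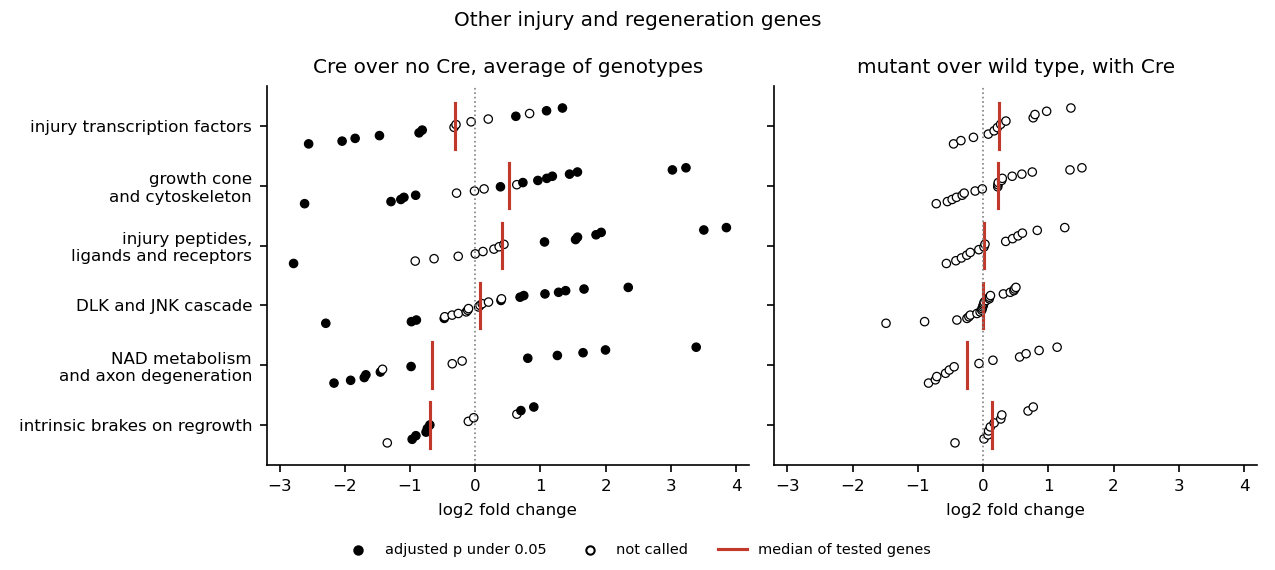
Log2 fold changes of the genes in 6 related lists, for Cre over no Cre averaged over genotypes (left) and mutant over wild type with Cre (right). Each point is a gene, filled where its adjusted p is under 0.05, and red bars mark the median of the tested genes of a list; 61 points are filled on the left and none on the right.

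Across the 11 Cre libraries each tested member was set against the genes with a mean of at least 10 CPM there, by Pearson's r of log2(CPM + 1), and the closest are given as a description. The Cre libraries differ in depth and in glial content, and the part of these in the likeness was not tested. Nmnat2 was most like Syt2, a synaptotagmin of fast synapses (r = 0.979), and Prune2 (r = 0.974). Jun was most like the co-chaperone gene Stip1 (r = 0.966) and Hprt (r = 0.962). Map3k12 was most like the endocytic GTPase gene Dnm1 (r = 0.954), Ecel1 like the spectrin-binding adducin gene Add2 (r = 0.927) and Nrg1 (r = 0.908), and Gap43 like Acat1 (r = 0.923) and Cd200 (r = 0.895). Gadd45a was most like Lars, the leucyl-tRNA synthetase gene (r = 0.889), and Sarm1 like Tspyl2 (r = 0.878), while the likeness of Sox11 to any gene rests on too few counts to be read.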

How the data were processed

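Ribosome-associated RNA from anti-HA precipitates of spinal cord was sequenced in 23 libraries. Per the submitters' processing notes the authors used Bowtie2 2.2.0 and RSEM 1.2.12, and per the file headers the deposited tables give an expected count (estimated count, without normalization) and TPM (transcript abundance scaled by RSEM to transcript length and library) for each gene; no label or header used here names the build, the annotation or the strand setting. Of 38924 gene IDs, 37607 were found in GENCODE M21 (GRCm38), which gave positions and overlaps.

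The members and lists were chosen with earlier results of these data known. Expected counts were rounded, filtered with filterByExpr (minimum count 10, minimum total 15), scaled by TMM and tested with edgeR 4.0.16 (R 4.3.3, limma 3.58.1) by quasi-likelihood, with Benjamini-Hochberg adjustment over all genes tested. There were 6 comparisons: the Cre effect in mutants, in wild type and averaged, the genotype effect with and without Cre, and the difference of the genotype effects. The fits of 1 pair of groups used those groups alone, and the average and the difference used all 23 libraries. SEs are the log2 fold change divided by the square root of F, and intervals are 95%. The script was tested on simulated data. TPM was used for levels between genes. Named list genes are among the 4 with the smallest p per list in the averaged Cre or the genotype comparison, except for the few singled out by role or after their values were seen (Map3k13, Osmr, Cd38, Nampt, Nmrk1, Il6, Reg3b, Gpr151 and Atf3), and likeness was ranked among genes of at least 10 CPM with a pseudocount of 1. Motifs were searched in RefSeq promoters.

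Alternatives were RLE size factors, library totals alone, DESeq2 1.42.0, no filter, removal of rRNA-like genes, a block for the leading number of the title, omission of title number 18405, all libraries in 1 fit and each library left out in turn; the fit without 4 libraries high in oligodendrocyte markers was added after seeing the data. The 55 pairs of libraries within groups differed by more than sampling noise (lowest chi-square per degree of freedom 8.57). The intervals include the spread between libraries, whereas the limits given for a count of 0 cover counting error only.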

Additional observations from a re-analysis of the deposited data

Results flagged for a closer look

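Of the 36 sets of CPM values of a member in a group, 4 had a library that stood far from the others of its group. Chance alone flags about 1 in 20 such sets where values are normally distributed. A set in which all libraries but 1 hold 0 is always flagged, so that rate does not apply to the Sprr1a sets below. Gap43 was 37.0 CPM in wild-type no-Cre replicate 1, from 255 counts, where the other 5 libraries of that group held 5.67 to 17.2 CPM. Sarm1 was 22.0 CPM in mutant Cre replicate 3, from 419 counts, where the other 5 libraries held 3.76 to 10.1 CPM; without that library the genotype difference of Sarm1 was -0.30 in place of 0.13 on the log2 scale. Sprr1a was 0.863 CPM in mutant no-Cre replicate 4 and 0.120 CPM in wild-type no-Cre replicate 4, from 4 and 3 counts, where all other libraries of these groups held 0.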

How the results depend on the processing

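No member was called between the genotypes, with or without Cre, or for the difference of the genotype effects, under any alternative run, although leaving out wild-type Cre replicate 2 moved the count over all genes with Cre to 1054 (10 to 38 for the other omissions, 41 with all libraries). The Cre calls varied more. In wild type 6 members were called, and 2 to 6 with 1 library left out, where 4878 to 6474 of all genes were called. The lower counts came without wild-type Cre replicate 4 or wild-type no-Cre replicates 3, 4, 5 or 6. Library totals alone gave 1 member and the title number as a block gave 2. Calls over all genes fell as well, from 5738 to 906 with library totals and to 4557 with the block. In mutants 5 were called, and 4 to 5 with 1 library left out, where 3451 to 4989 of all genes were called. The title number block gave 1, where calls over all genes fell from 4247 to 598. With that block the mutant effect rests on number 18405 alone, whose Cre libraries are the 2 highest in oligodendrocyte markers. There Sarm1, Nmnat2 and Map3k12 turned to -0.42, -0.11 and -0.091. Both genotypes together gave 4 to 7 calls. Library totals alone put the median log2 fold change of all genes at 1.13 in place of -0.14 for Cre in mutants, 0.79 in place of 0.06 for genotype with Cre and 1.18 in place of 0.12 for the difference. No paired analysis was possible because the replicate numbers follow the order of deposit and pair no libraries.

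Apart from Sarm1 above, the changes of sign concern values that were not called in the fits reported. With library totals alone Sox11 turned to 0.58 for Cre in mutants and 0.11 for the averaged Cre effect; Jun, Sox11, Nmnat2 and Map3k12 to 0.78, 0.56, 0.59 and 0.71 for genotype with Cre; Jun, Gadd45a, Nmnat2 and Map3k12 to -0.40, -0.14, -0.30 and -0.24 for genotype without Cre; and Jun, Sox11, Ecel1, Nmnat2 and Map3k12 to 1.19, 0.94, 0.83, 0.89 and 0.95 for the difference. With the title number block Sox11 and Map3k12 turned to 0.21 and 0.13 with Cre; Jun, Sox11, Gap43, Ecel1 and Nmnat2 to -0.43, 0.12, 0.34, -0.53 and -0.20 without Cre; and Sox11 and Ecel1 to 0.29 and 0.14 for the difference. Without a filter Jun and Nmnat2 were -0.016 and -0.035 without Cre. Without number 18405 Map3k12 was 0.10 with Cre and Ecel1 0.13 for the difference. Without the 4 libraries high in oligodendrocyte markers Map3k12 was 0.092 with Cre, and Ecel1, Nmnat2 and Map3k12 were 0.31, 0.051 and 0.038 for the difference. With 1 library left out, the genotype values with Cre ran from -0.58 to 0.015 for Sox11, -0.21 to 0.23 for Ecel1, -0.30 to 0.28 for Sarm1 and -0.14 to 0.0072 for Map3k12. Those without Cre ran from -0.12 to 0.13 for Jun, -0.63 to 0.10 for Sox11, -0.12 to 0.54 for Gadd45a, -0.15 to 0.77 for Ecel1 and -0.18 to 0.11 for Nmnat2. The differences ran from -0.43 to 0.34 for Sox11, -0.080 to 0.56 for Gadd45a and -0.72 to 0.14 for Ecel1. Except where stated, the cause was not tested.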
